A study of Mus musculus with 6 samples.

Results

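The nuclear-encoded respiratory chain genes are the protein-coding genes whose products build the complexes of oxidative phosphorylation in the inner mitochondrial membrane. They were taken from the table of 49548 genes by name: the Nduf genes of complex I, Sdha to Sdhd of complex II, the Uqcr genes and Cyc1 of complex III, Cycs for cytochrome c, the Cox5 to Cox8 genes of complex IV and the Atp5 genes of ATP synthase. Ndufa4 and Ndufa4l2 were left out of the set by the rule. This gave 91 genes, of which 88 had at least 1 normalized count in the 6 libraries and were tested, and 84 had a mean of at least 10. Cox8b, Cox8c and Cox7b2 were listed at 0 in every library, where a count of 0 allows up to 3 counts.

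Complexes I and II pass electrons from NADH and succinate to ubiquinone, complex III passes them to cytochrome c, and complex IV hands them to oxygen. Complexes I, III and IV pump protons, and ATP synthase uses the gradient to make ATP. Most subunits are encoded in the nucleus and are needed in fixed proportions, and a core of hydrophobic subunits is encoded in the mitochondrial DNA. The mitochondrially encoded genes have no entry among the genes used here and are not analysed here.

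The libraries are 3′ mRNA sequencing of cancer-associated fibroblasts (CAFs) from colonic adenomas, which were induced with azoxymethane and dextran sodium sulfate (AOM/DSS). All 6 came from C57/BL6 mice with the genotype Col6a1-cre, Rosa26-mTmG, in which Cre turns off membrane Tomato and turns on membrane GFP. There were 3 libraries of Col6a1Cre-GFP+ cells (Col6a1+ CAFs) and 3 of Tomato+ cells (Col6a1− CAFs), all depleted of cells bearing CD45, EpCAM, CD31 or Ter119 and each from tumors pooled over several mice. The comparison asks how the CAFs that Col6a1Cre marks differ from the remaining lineage-negative stroma of AOM/DSS tumors. Whether libraries with the same replicate number came from the same pool is not settled, and the main fit did not pair them. Col6a1Cre reports past Cre activity, and it marks perivascular cells as well as a class of fibroblasts, so neither group is a single cell type.

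Col6a1 itself was at 861, 1287 and 1941 normalized counts in the Col6a1+ CAFs and at 182, 321 and 102 in the Col6a1− CAFs. The libraries summed to between 3039152 and 3425249 normalized counts. Genes detected ranged from 18770 to 20511 in 5 libraries, and there were 14530 in Col6a1+ replicate 1, which stood apart. All 6 pericyte markers and 4 of 6 fibroblast markers were higher in the Col6a1+ CAFs, and 9 of 15 epithelial markers were lower (adjusted p under 0.05, limma). With the replicate number as a block these counts were 0 over all genes, and 6, 4 and 12 over genes with a mean of at least 10. The summed epithelial markers were at 6058 to 7088 normalized counts in the Col6a1+ CAFs and at 21401 to 36698 in the Col6a1− CAFs. No epithelial marker was at 0 in all libraries of a group, although EpCAM+ cells had been sorted out. Slc26a3 was at 0 in Col6a1+ replicate 1. These markers moved with every difference given below, and their part in it was not tested. In bulk libraries, fewer cells of a type and less RNA per cell cannot be told apart.

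As a whole, the respiratory chain genes took up a smaller share of the Col6a1+ CAF libraries. They made up 1.05%, 1.19% and 1.12% of the normalized counts in the 3 Col6a1+ CAF libraries and 1.52%, 1.54% and 1.30% in the 3 Col6a1− CAF libraries. The groups did not overlap, with means of 1.12% ± 0.0680 and 1.45% ± 0.135 (SD, n = 3 each). Protein-coding genes with a mean of at least 10 together made up the larger share in the Col6a1+ CAFs, 82.0% to 84.4% against 78.1% to 79.2%. No test was run on these sums.

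**Figure D1:**
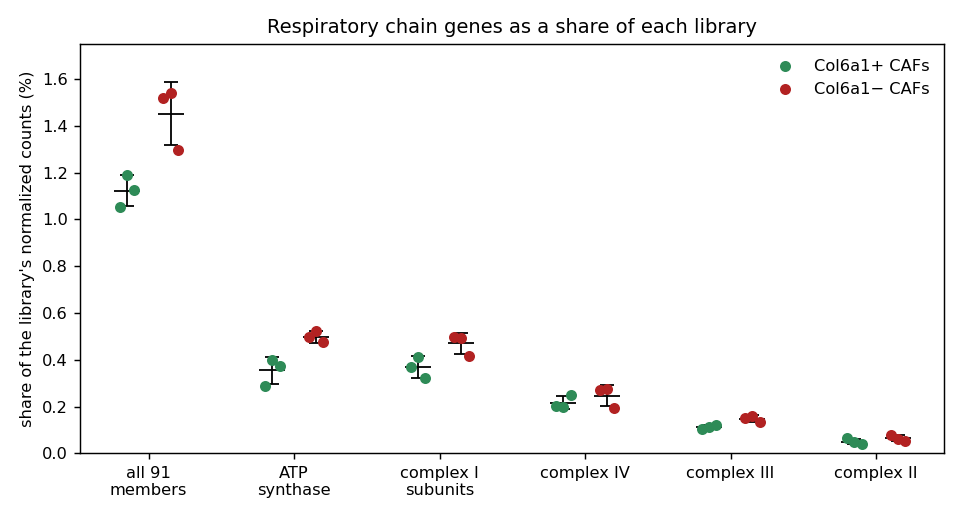
Share of each library's normalized counts (%, y axis) taken by all 91 members and by the members of 5 complexes (x axis), with 1 point per library, Col6a1+ CAFs in green and Col6a1− CAFs in red, and black bars for the mean ± SD (n = 3). For all members the Col6a1+ CAF libraries lie between 1.05% and 1.19%, below the Col6a1− CAF libraries at 1.30% to 1.54%, while the groups overlap for complexes II and IV.

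Gene by gene, no member passed the test across all genes. At an adjusted p under 0.05 (limma, Benjamini-Hochberg over 26402 genes), 0 of 88 members were called in either direction, beside 4.62% of all genes (2.66% higher and 1.96% lower in the Col6a1+ CAFs). At an unadjusted p under 0.05, 12 members were lower and 1 was higher in the Col6a1+ CAFs, beside 9.4% and 6.63% of all genes, and beside 13.6% and 11.8% of the 13515 genes whose mean was 10 or more. With limma-voom, too, 0 members were called at an adjusted p under 0.05, beside 3.81% of all genes lower and 3.05% higher. At an unadjusted p under 0.05 limma-voom gave 16 lower and 1 higher. The 12 of the main fit became 4 without Col6a1− replicate 2, 5 without Col6a1− replicate 1 and 7 without Col6a1− replicate 3. They became 7 when libraries were centred on their median gene. Shares of all genes at an unadjusted p were not counted for limma-voom or these settings, so these counts stand without a comparison.

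The direction was nevertheless one-sided. The log2 fold change (Col6a1+ minus Col6a1− CAFs) was negative for 71 of 88 members, beside 58.8% of all genes, and for 67 of the 84 with a mean of at least 10 (79.8%), beside 56.4% of all genes of that level. Its median was -0.39 with quartiles of -0.61 and -0.11, beside a median of -0.27 over all tested genes and of -0.15 over those 13515 genes. Without Col6a1+ replicate 3 the median of the members was -0.32 and that of all tested genes -0.33. All 3 Col6a1+ CAF libraries lay below all 3 Col6a1− CAF libraries for 19 members and above them for 1, beside 11.6% and 7.91% of all genes. Among genes with a mean of at least 10 these shares were 17.6% and 14.2%, while 22.6% and 1.19% of the 84 members were so placed. The SD of the log2 fold changes was 0.48 over the 84 members, beside 1.47 over those 13515 genes, and 52 of the 84 differed by less than 0.5. The 13515 genes were not matched to the members in level, and the part of level in this spread was not tested. The interval of a member was wide, with a median half-width of 0.77 at 95%, and for 22 of the 84 it lay within a 2-fold change in either direction.

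**Figure D2:**
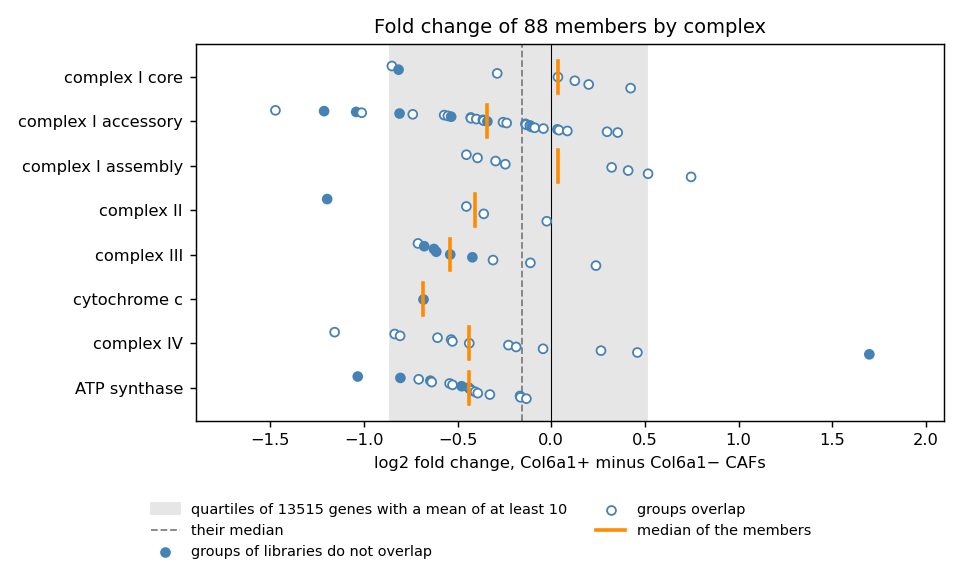
Log2 fold change of each of the 88 tested members (x axis) by complex (y axis), with filled points where the 3 and 3 libraries do not overlap, orange bars for the median of a complex, and a grey band and dashed line for the quartiles and the median (-0.15) of the 13515 genes whose mean was 10 or more. All 17 ATP synthase genes lie left of 0, and Cox6b2 lies alone at 1.70.

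Promoters of these genes are known to carry sites for a few shared activators: NRF1, the ETS factor GABP (also called NRF2), YY1 and estrogen-related receptors (ERR). RefSeq start sites on GRCm38.p6 were matched for 74 of the 91 members. In the window from 250 bases before to 50 after a start, both strands were searched for GCGCA and GCGC with 1 base of any kind between them (NRF1), CCGGAAG (ETS), AAGATGG (YY1) and AAGGTCA (ERR). The NRF1 letters were found for 19 members (25.7%), beside 5.19% of 27025 genes, and the ETS letters for 18 (24.3%), beside 9.93%. The YY1 letters were found for 11 members (14.9%, beside 7.28%) and the ERR letters for 8 (10.8%, beside 5.38%), so that 42 members (56.8%) held at least 1 of the 4, beside 24.5% of genes. The 27025 genes were not matched to the members in level or in base composition, and the part of either in these shares was not tested. A match of letters is a description of the sequence and not a binding site.

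The 250 bases before the start are shown for 4 genes that the results return to, with the matched letters in capitals. They are the isoform pair Cox6b2 and Cox6b1, Cox6a1, and Sdhd, one of the members with the largest negative fold changes. All 4 lie on the minus strand of GRCm38.p6, and each sequence is given 5′ to 3′ along the gene. The choice was made after the values and motifs were seen.
Cox6b2, chr7:4753095-4753344, with no match: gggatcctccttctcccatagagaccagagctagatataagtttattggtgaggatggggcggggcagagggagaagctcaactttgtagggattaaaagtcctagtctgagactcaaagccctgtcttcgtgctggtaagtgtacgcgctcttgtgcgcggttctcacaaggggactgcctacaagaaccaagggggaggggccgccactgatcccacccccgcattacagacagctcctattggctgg
Cox6b1, chr7:30626115-30626364, with an ETS match: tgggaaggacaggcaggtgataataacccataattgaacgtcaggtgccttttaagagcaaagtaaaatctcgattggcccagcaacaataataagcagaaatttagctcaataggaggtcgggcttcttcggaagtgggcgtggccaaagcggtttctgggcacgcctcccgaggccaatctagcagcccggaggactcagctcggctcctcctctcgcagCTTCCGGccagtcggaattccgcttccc
Cox6a1, chr5:115348959-115349208, with 2 NRF1 matches and an ETS match: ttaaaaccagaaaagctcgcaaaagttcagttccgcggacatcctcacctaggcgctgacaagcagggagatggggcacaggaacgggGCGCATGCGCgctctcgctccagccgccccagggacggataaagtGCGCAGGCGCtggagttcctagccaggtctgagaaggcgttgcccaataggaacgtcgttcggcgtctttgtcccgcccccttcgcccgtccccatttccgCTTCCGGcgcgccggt
Sdhd, chr9:50603850-50604099, with an NRF1 and an ETS match: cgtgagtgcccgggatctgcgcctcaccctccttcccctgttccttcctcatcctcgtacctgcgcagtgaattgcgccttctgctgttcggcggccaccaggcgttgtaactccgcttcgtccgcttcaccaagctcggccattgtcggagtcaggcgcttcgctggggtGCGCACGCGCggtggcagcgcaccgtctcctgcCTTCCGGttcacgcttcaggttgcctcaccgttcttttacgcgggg

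In complex I, the 7 core subunits, which carry the flavin and the iron-sulfur clusters, had a median log2 fold change of 0.04 (-0.02 when scaled by library size alone), with 3 negative and 4 positive. Their summed counts were at 1489 to 1559 in the Col6a1+ CAFs and at 1288 to 1804 in the Col6a1− CAFs, so the groups overlapped. Ndufs1, the largest subunit, was at 246, 203 and 222 against 214, 212 and 161 normalized counts (log2 fold change 0.20 ± 0.31 SE). Ndufv1, which binds NADH, was at 398, 299 and 229 against 254, 347 and 238 (0.13 ± 0.33). For both the groups overlapped. Ndufs7, which holds the last iron-sulfur cluster before ubiquinone, had the highest value of the core, with 210, 124 and 182 against 147, 158 and 84 (0.42 ± 0.39). Ndufs8 had the lowest, with 24, 150 and 149 against 73, 280 and 159 (-0.85 ± 0.72). Without Col6a1+ replicate 1 the log2 fold change of Ndufs8 was 0.01. Replicate 1 was, however, the lowest library for Ndufs8 in both groups (24 and 73). Its unadjusted p was 0.262 in the main fit (adjusted p 0.603, limma). With the replicate number as a block and a mean of at least 10 it was 0.0614 (adjusted p 0.200, limma). Ndufv2, a core subunit beside Ndufv1, was close to Ndufs8, with 77, 111 and 93 against 178, 148 and 167 (-0.82 ± 0.34, adjusted p 0.266, limma). It was the one core subunit whose groups did not overlap, it lay between -0.95 and -0.68 with each library left out, and it was picked out after its values were seen.

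The 29 accessory subunits of complex I, which surround the core and stabilize it, were mostly on the negative side, with 24 negative and 5 positive and a median of -0.34. Ndufa6 had the smallest p of all members with a negative fold change and was picked out after its values were seen. It was at 479, 508 and 383 normalized counts in the Col6a1+ CAFs and at 775, 828 and 786 in the Col6a1− CAFs. The groups were well apart and each was narrow, with a log2 fold change of -0.81 ± 0.26 (SE), but the adjusted p was 0.130 (limma over all genes). Ndufb7 had the lowest value, with 29, 341 and 241 against 258, 501 and 408 (-1.47 ± 0.76). Its groups overlapped, and without Col6a1+ replicate 1 its log2 fold change was -0.39. Ndufa8 had the highest value of the accessory subunits, with 404, 157 and 128 against 212, 145 and 126 (0.35 ± 0.46), which turned to -0.15 without the same library. Ndufs4 and Ndufs6, subunits close to the NADH-binding module that were also picked out after their values were seen, lay at -1.21 ± 0.45 and -1.01 ± 0.38, with adjusted p of 0.186 and 0.198 (limma).

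The 8 Ndufaf genes, assembly factors that help to build complex I and are not part of it, showed no common side, with 4 negative and 4 positive. Their median was 0.04 (-0.01 when scaled by library size alone), and their sums of 386 to 475 normalized counts in the Col6a1+ CAFs and 406 to 482 in the Col6a1− CAFs overlapped. Ndufaf2, which binds a late assembly intermediate, was highest at 37, 36 and 24 against 15, 30 and 14 (0.75 ± 0.62). Ndufaf8 was lowest at 134, 170 and 96 against 167, 198 and 171 (-0.45 ± 0.35). Neither pair of groups was apart.

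Complex II links the chain to the tricarboxylic acid (TCA) cycle by oxidizing succinate, and its 4 genes all had negative values, with a median of -0.41. Sdhd, a membrane anchor whose promoter is shown above, was at 243, 156 and 71 against 449, 247 and 297 normalized counts. The groups did not overlap by a small margin (243 against 247), and the log2 fold change was -1.20 ± 0.46 with an adjusted p of 0.208 (limma). Sdha, which binds FAD, was at 152, 352 and 495 against 378, 461 and 392 (-0.45), and Sdhb, which carries the iron-sulfur clusters, at 1077, 408 and 375 against 923, 708 and 535 (-0.36). In Col6a1+ replicate 1, Sdha was thus the lowest of the 6 libraries and Sdhb the highest. Sdhc, the other anchor, differed least, with 673, 567 and 462 against 615, 631 and 478 (-0.02).

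Of complex III, 8 of 9 genes were on the negative side, with a median of -0.54. The summed counts of the complex were at 3503 to 4113 in the Col6a1+ CAFs and at 4287 to 5302 in the Col6a1− CAFs, without overlap. Uqcrfs1, the Rieske iron-sulfur protein, was at 232, 194 and 186 against 272, 338 and 337 normalized counts (-0.63 ± 0.29, adjusted p 0.332, limma). Uqcrc1, a structural core protein, had the lowest value, with 46, 374 and 269 against 186, 372 and 299 (-0.71 ± 0.67). Its sign in the main fit depended on 1 library, since it was 0.21 without Col6a1+ replicate 1. Replicate 1 was the lowest for Uqcrc1 in the Col6a1− CAFs as well. Cyc1, the heme-bearing cytochrome c1, was at 63, 91 and 172 against 116, 188 and 87 (-0.31 ± 0.47), which turned to 0.02 without that library. Uqcrh, the hinge protein, was the 1 positive member, with 1006, 984 and 1436 against 865, 1235 and 810 (0.24 ± 0.29). Cycs, the cytochrome c that carries electrons from complex III to complex IV, was at 164, 183 and 225 against 240, 353 and 333, a log2 fold change of -0.68 ± 0.31 (adjusted p 0.320, limma) with no overlap.

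Complex IV is the complex with subunits that exist as alternative isoforms for different tissues. Of its 13 tested genes 10 were negative and 3 positive, with a median of -0.44, and the summed counts overlapped at 6299 to 8479 in the Col6a1+ CAFs and 6307 to 9047 in the Col6a1− CAFs. Cox5a, a subunit that joins the catalytic core early, was at 322, 478 and 614 against 928, 960 and 606 normalized counts. The groups overlapped by 1 library on each side, at a log2 fold change of -0.84 ± 0.33 (adjusted p 0.226, limma). Cox5b, which binds zinc, was at 237, 168 and 258 against 252, 337 and 302 (-0.44 ± 0.31).

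Cox6b2 was the 1 member placed wholly above in the Col6a1+ CAFs. It encodes the isoform of the Cox6b subunit that is best known from testis and sperm. It was at 188, 116 and 130 normalized counts in the Col6a1+ CAFs and at 62, 55 and 23 in the Col6a1− CAFs. The log2 fold change was 1.70 ± 0.48 (SE), positive without any of the 6 libraries in turn (1.26 to 1.96), and the adjusted p was 0.0773 (limma over 26402 genes). It passed with an adjusted p of 0.0402 over genes with at least 10 counts in every library, where 7.35% of genes were called higher. It also passed, at 0.0350, with the replicate number as a block and a mean of at least 10, where 7.26% of genes were called higher and 6.44% lower, while 0 members were called lower. Over all alternatives its adjusted p ran from 0.0350 to 0.284. Cox6b2 had no near-identical copy and no exon overlap with an expressed gene.

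Cox6b1, the somatic isoform of the same subunit, did not share this pattern. It was at 608, 542 and 813 against 888, 838 and 580 normalized counts, a log2 fold change of -0.23 ± 0.30 with overlapping groups. Since 3′ sequencing reads transcript ends, counts of both isoforms were set side by side without a length correction. For each 100 counts of Cox6b1 there were 30.9, 21.4 and 16.0 of Cox6b2 in the Col6a1+ CAFs and 6.98, 6.56 and 3.97 in the Col6a1− CAFs. The somatic isoform was thus the more abundant in every library, and the ratio of the isoforms did not overlap between the groups. As the sequences above show, the ETS letters stand before the start of Cox6b1, and none of the 4 motifs stands before that of Cox6b2.

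The other isoforms of complex IV differed less. Cox6a1, the isoform outside heart and muscle, was at 643, 513 and 1294 against 507, 790 and 409 normalized counts (0.46 ± 0.39, or 0.07 without Col6a1+ replicate 3), and its muscle counterpart Cox6a2 was at 0 in 5 libraries and at 2 in Col6a1− replicate 2. Cox7a2, the widely expressed form, was at 435, 477 and 586 against 554, 644 and 504 (-0.19 ± 0.27). Cox7a1, the heart and muscle form, was low throughout and had the lowest value of the complex, with 7, 30 and 9 against 31, 42 and 19 (-1.16 ± 0.76). Cox7a2l, a gene linked to supercomplexes of complexes III and IV, was at 356, 864 and 718 against 1072, 910 and 803 (-0.61 ± 0.35), where 1 Col6a1+ library lay between the Col6a1− ones. Cox8a, the one Cox8 form detected, was at 1541, 1560 and 2428 against 1966, 2452 and 1327 (-0.04 ± 0.32).

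**Figure D3:**
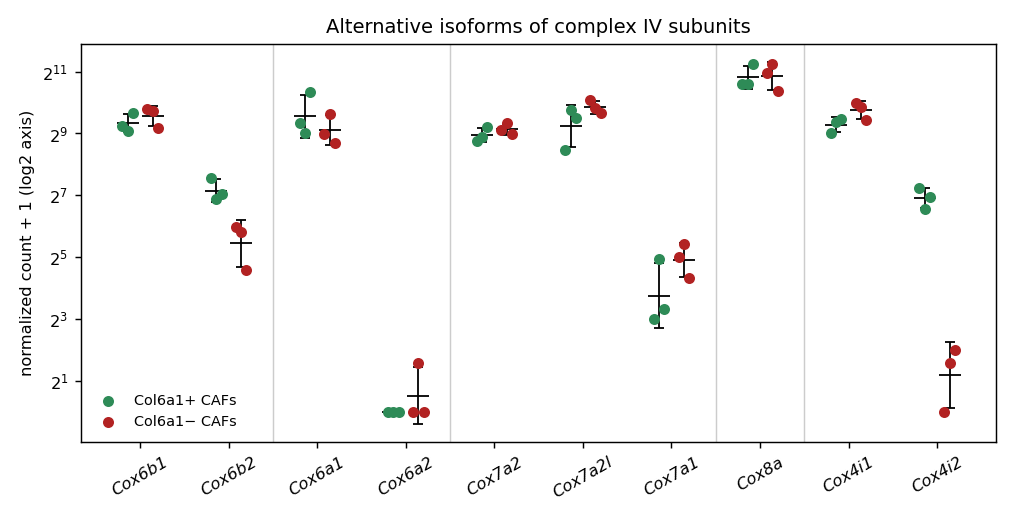
Normalized count + 1 (y axis, log2 scale) of isoforms of complex IV subunits (x axis), with 1 point per library, Col6a1+ CAFs in green and Col6a1− CAFs in red, and black bars for the mean ± SD of the log2 values (n = 3). Cox6b2 and Cox4i2, which is outside the name rule, are higher in every Col6a1+ CAF library, while Cox6b1, Cox6a1, Cox7a2 and Cox8a overlap.

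Subunit 4 and the related Ndufa4 genes are outside the name rule and held the only respiratory subunits that passed the test. Cox4i2, an isoform linked to oxygen sensing, was at 150, 94 and 122 against 0, 2 and 3 normalized counts (adjusted p 0.00338, limma). Ndufa4l2, a target of hypoxia signaling, was at 317, 158 and 185 against 1, 5 and 0 (adjusted p 0.00190, limma). The pericyte markers moved with them, and their part was not tested: summed, they were at 36096 to 52286 in the Col6a1+ CAFs and at 432 to 932 in the Col6a1− CAFs. The standard forms went the other way in their means, with Cox4i1 at 511, 662 and 712 against 1020, 917 and 689 (-0.47 ± 0.28) and Ndufa4 at 0, 39 and 12 against 48, 41 and 77 (-2.76 ± 1.17, or -1.25 without Col6a1+ replicate 1), neither of which passed. With the replicate block, over all genes and without the filter on the mean, 0 of all genes were called, and the adjusted p was 0.0659 for Cox4i2 and 0.0612 for Ndufa4l2 (limma).

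ATP synthase was the most uniform complex. All 17 of its tested genes had negative values, from -1.03 to -0.13, with a median of -0.44, and 13 of the 17 were negative without Col6a1+ replicate 1. The set holds Atp5s and Atp5sl, which share the name but are not counted among the standard subunits of the enzyme. Summed, the genes were at 9609 to 12857 normalized counts in the Col6a1+ CAFs and at 15075 to 17170 in the Col6a1− CAFs, without overlap. Atp5b, the catalytic beta subunit, was at 1287, 2328 and 1677 against 2731, 3345 and 2942 (-0.81 ± 0.29, adjusted p 0.179, limma). Atp5a1, the alpha subunit that alternates with it in the ring, was at 848, 1093 and 1037 against 1335, 1543 and 1264 (-0.48 ± 0.26, adjusted p 0.419). Both were apart between the groups. Atp5j2, a subunit of the membrane part, had the lowest value at 551, 571 and 507 against 773, 742 and 2394 (-1.03 ± 0.42). Its groups did not overlap, but Col6a1− replicate 3 was far above the other libraries, and without it the log2 fold change was -0.48.

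The c-ring, through which the protons flow, is made from 3 genes that encode the same mature protein. Atp5g3 was the most abundant member of the whole set, at 3678, 4890 and 5978 against 4941, 6444 and 4756 normalized counts (-0.16 ± 0.29). Atp5g1 was at 132, 177 and 317 against 319, 297 and 297 (-0.64 ± 0.36), and Atp5g2 at 58, 116 and 172 against 84, 163 and 112 (-0.13 ± 0.47). All 3 overlapped between the groups, and in every library Atp5g3 held most of the counts, with 3.59 to 6.46 counts of Atp5g1 for each 100 of Atp5g3. Atp5g2 shared its 3′ end with 2 other genes, and with their counts added its log2 fold change was 0.12.

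Such copies touched 16 members, which had at least 1 other gene with a near-identical 3′ end (at least 95% identity over at least 100 of the last 200 bases). For 7 of them the counts listed under the copies exceeded those of the gene itself, as for Ndufab1, with a mean of 71.8 normalized counts against 508 for its copies, and Cox7c, with 285 against 506. How reads were split between a gene and its copies is uncertain for them. A further limit is that 15 members shared exon bases with another expressed gene, on the opposite strand in 14 of the 15. The 62 members with neither had a median log2 fold change of -0.40 over the 59 tested, close to that of the whole set, with 49 negative and 10 positive.

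**Figure D4:**
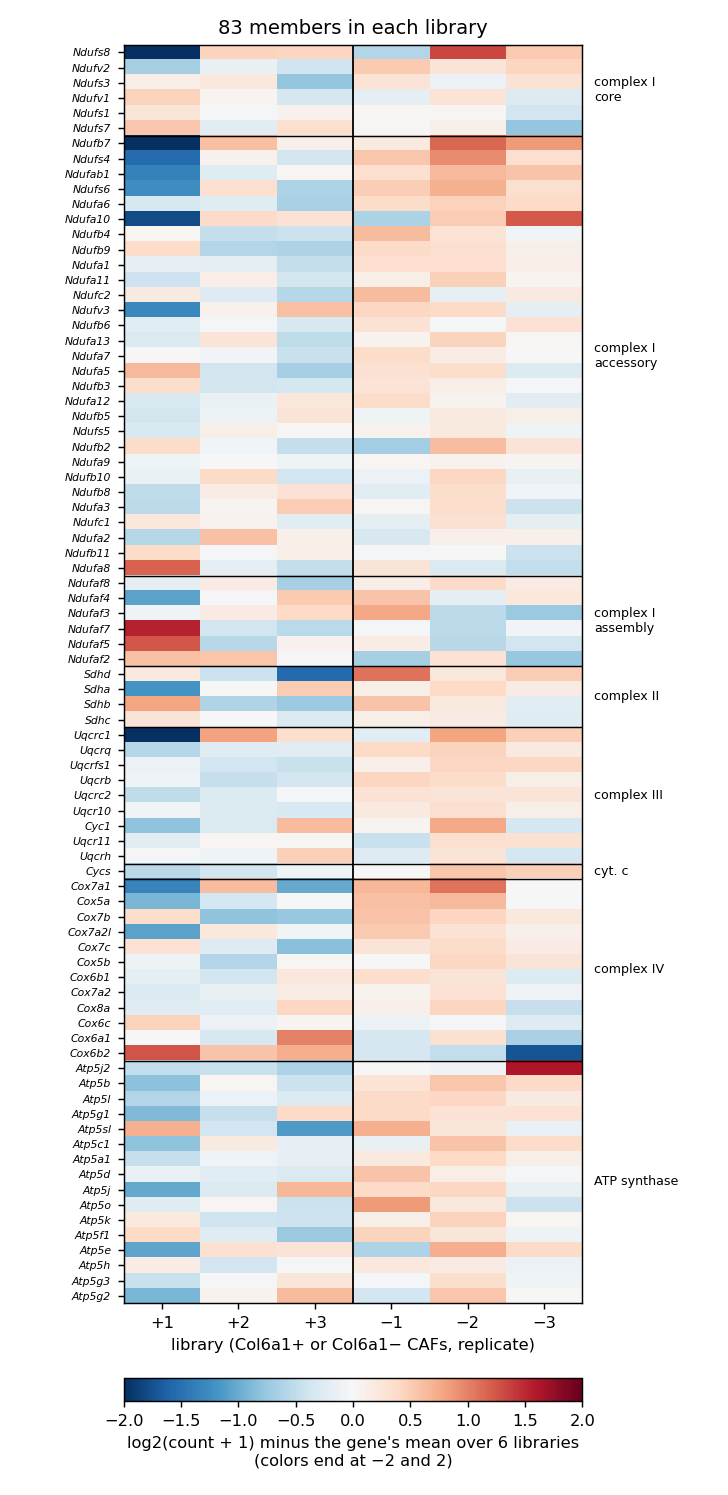
Log2(normalized count + 1) of 83 members (rows, grouped by complex and sorted by fold change) in each of the 6 libraries (columns), as the difference from the gene's mean over the libraries, with blue for lower, red for higher and colors ending at -2 and 2. Blue prevails in the 3 Col6a1+ columns, Col6a1+ replicate 1 holds the darkest blue cells, and Cox6b2 is the row with the opposite pattern.

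The members differed among themselves within a library. In Col6a1+ replicate 1, the library with the fewest genes detected, 36 of 84 members had their lowest value of the 6 libraries and 15 their highest, and the SD of their log2 deviations was 0.77, against 0.32 to 0.47 in the other 5. This library was more than 2-fold below the mean of the other 2 Col6a1+ libraries for 15 members and more than 2-fold above it for 8. Col6a1− replicate 2 held the highest value for 35 members and the lowest for 0. Without Col6a1+ replicate 1, 60 of 88 members had a negative value and the median was -0.30, beside -0.06 over the genes of their level.

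The genes around the respiratory chain were read in the same way, and none of the following lists held a gene at an adjusted p under 0.05 (limma). With the replicate number as a block and a mean of at least 10, 3 of their genes were called lower, beside 6.44% of all 13515 genes. They were Cox17 (adjusted p 0.0480, limma) among the assembly factors, Ppargc1a (0.0308) and Vdac2 (0.0278). At that mean the lists held 29 assembly factors, 18 TCA cycle genes, 12 biogenesis regulators and 21 import and mass genes. Assembly factors of complexes II to V numbered 32, with 19 negative and a median of -0.22, and enzymes of the TCA cycle and pyruvate dehydrogenase 18, with 13 negative and a median of -0.32. At an unadjusted p under 0.05 the first held 3 lower and 1 higher, and the second 0. Over all genes, 9.4% were lower and 6.63% higher at that p. Among genes with a mean of at least 10 these shares were 13.6% and 11.8%. The same shares stand beside the counts of the lists that follow. The list of outer membrane, import and mass genes held 18 negative of 21, with a median of -0.51 and sums of 6665 to 8128 against 9028 to 10146 normalized counts, without overlap. At an unadjusted p under 0.05, 5 of these were lower and 1 was higher. Vdac2, an outer membrane channel, was at 354, 433 and 391 against 763, 841 and 731 (-0.99 ± 0.26, adjusted p 0.0629, limma, with a range from 0.0278 to 0.176 over the alternatives). Regulators of mitochondrial biogenesis had 11 negative of 17 and a median of -0.57, with 3 lower and 0 higher at an unadjusted p under 0.05. Ppargc1a, the coactivator PGC-1alpha that drives respiratory gene expression with NRF1 and ERR, was at 3, 0 and 4 against 27, 24 and 88 normalized counts. It was low in both groups beside the subunits, the groups were apart, and the log2 fold change was -3.87 ± 1.00 with an adjusted p of 0.0567 (limma), which ran from 0.0220 to 0.278 over the alternatives. Of the 6 positive members of that list, Nrf1, whose motif was counted above, was at 81, 69 and 168 against 36, 28 and 88 (1.11 ± 0.55, adjusted p 0.362, limma). Its groups overlapped, as did those of Tfb2m (1.33) and Ppargc1b (1.02), neither of which passed. On the negative side, Esrra, which encodes an ERR, was at 27, 73 and 64 against 77, 199 and 127 (-1.30 ± 0.52, adjusted p 0.234, limma). Tfb1m, at low counts, was at 0, 2 and 1 against 24, 3 and 9 (-2.46 ± 1.04, adjusted p 0.269, limma). The list thus held values on both sides. For 3 of the 17, Ppargc1a, Esrra and Tfb1m, all Col6a1+ libraries lay below, and for 0 above, beside 11.6% and 7.91% of all genes. Vdac2, Cox17 and these regulators were picked out after their values were seen.

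Nuclear copies of mitochondrial genes were the nearest that the table comes to the mitochondrial transcripts themselves. There were 11 nuclear genes with a mean of at least 10 whose transcripts match a mitochondrial protein-coding transcript over at least 200 bases at 95% identity. Together they took up 1.95%, 2.81% and 3.47% of the Col6a1+ CAF libraries and 4.38%, 4.44% and 3.91% of the Col6a1− CAF libraries, without overlap. None of the 11 was called at an adjusted p under 0.05, and 0 had an unadjusted p under 0.05 (limma). Whether their counts come from mitochondrial or nuclear transcripts was not tested.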

How the data were processed

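The 6 libraries were QuantSeq 3′ mRNA libraries read on an Ion Proton, and groups and replicate numbers came from their labels. The authors mapped reads with TopHat2 and Bowtie2 to mm10, counted them per gene with GenomicRanges and scaled them with DESeq through metaseqR. They deposited log2(normalized count + 1) for 49548 genes, whole normalized counts in 100% of the values. Their p-values, false discovery rates and fold changes are in the same table and were not used, nor were 6 other per-sample columns. The scaled sums are not read numbers.

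With limma 3.58.1 in R 4.3.3, both groups were fitted over the 26402 genes that had any normalized count, with Benjamini-Hochberg adjustment. The eBayes step followed the mean-variance trend, with degrees of freedom of 6.48 prior and 4 residual. The fit was also run on simulated counts, with changes larger than that of any member. That run does not show whether changes of the members' size would be found. Fold changes are on the log2(value + 1) scale. The p-values measure the spread between pools. The main fit used the group only and ignored any pairing by replicate number, which entered only in the alternatives called a block. The correlations of deviations in same-numbered libraries were 0.245, 0.125 and 0.144, with -0.245 to 0.150 in the others. These ranges overlap, so the correlations do not settle whether the numbers are pairs. The members and lists were chosen with earlier results of these data known. Named are the members with the highest and lowest fold change of each complex, fixed core subunits and isoforms, any called gene, and those said to be picked later; 1 core subunit is not reported here. Copies were found with BLAST 2.17.0 in GENCODE vM21 transcripts, with Python 3.11.15 and pandas 2.3.3, and plots drawn with Matplotlib 3.10.9. Motifs were searched in RefSeq promoters.

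The other marker lists were read over all genes at an adjusted p under 0.05 (limma). They gave 4 of 5 smooth muscle genes higher and 1 of 10 immune genes lower, beside 2.66% and 1.96% of all genes. Of the endothelial, erythroid, glial, skeletal muscle, adipocyte and proliferation genes 0 were called. At an unadjusted p under 0.05, 2 endothelial and 1 proliferation gene were lower and 1 glial gene higher, beside 9.4% and 6.63% of all genes.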

Additional observations from a re-analysis of the deposited data

How the results depend on the processing

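The median log2 fold change of the members stayed negative and within 1 SD between libraries (0.112) under every alternative run, from -0.45 (without Col6a1− replicate 3) to -0.30 (without Col6a1+ replicate 1). It lay 0.16 to 0.31 below the median of genes with a mean of at least 10, and 0.37 below that of genes with at least 10 in every library. Relative to all genes tested it lay between -0.37 (no filter) and 0.00849 (without Col6a1+ replicate 3). The count of members called higher at an adjusted p under 0.05 was 0, and became 1 with at least 10 counts in every library and 1 with the replicate block and a mean of at least 10, in both cases Cox6b2. At unadjusted p under 0.05, counting only changes of more than 2-fold, 1 was higher and 4 lower. The share of all genes under this rule was not counted, so these counts stand without a comparison. Leaving out each library in turn gave 0 members in both directions at an adjusted p under 0.05. Few of all genes were called in some of these fits. Without Col6a1− replicate 1 they were 1 lower and 11 higher of 25839, and without Col6a1+ replicate 1 they were 442 lower and 453 higher of 26150. The 0 is therefore no sign of stability where few genes were called. The replicate block over all genes called 0 genes, so that the calls of markers, Cox4i2 and Ndufa4l2 were lost. At an unadjusted p under 0.05 it gave 14 members lower and 1 higher, and the share of all genes was not counted there either. With the block and a mean of at least 10, Cox4i2, Ndufa4l2 and all these markers were called, as were 12 of the 15 epithelial markers.

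Of the 88 members, 67 were negative with median centring and 69 with copies added, in place of 71, and 30 changed sign when some library was left out. Among the named members, those that changed sign were Cox8a (0.0532) and Sdhc (0.0728) with median centring, Sdhc with the upper quartile (0.00414), and Atp5g2 with its copies added (0.12), which was chosen after seeing the data, as was leaving out members with a copy or exon overlap. With each library left out, the log2 fold changes of the named members that changed sign ran from -0.49 to 0.29 for Atp5g2, from -0.33 to 0.0206 for Atp5g3, from -0.29 to 0.16 for Cox8a, from -0.70 to 0.0151 for Cyc1, from -0.15 to 0.68 for Ndufa8, from -1.36 to 0.0117 for Ndufs8, from -0.0756 to 0.32 for Ndufv1, from -0.82 to 0.0301 for Sdha, from -0.16 to 0.12 for Sdhc and from -1.29 to 0.21 for Uqcrc1. The cause was not tested.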
